A study of Homo sapiens with 2 samples.

Results

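The cells described here are 1212 cells of the day 160 library that carried RNA of CALB2 or SCGN, the genes of the calcium-binding proteins calretinin and secretagogin. They were 12.15% (95% Clopper-Pearson interval 11.52 to 12.81) of the 9972 day 160 cells kept for having at least 1000 detected genes and no more than 15% mitochondrial UMIs, out of 10496 such cells in both libraries. A UMI is a molecular tag that stands for 1 captured RNA molecule. A cell was inside the gate when its CALB2 and SCGN UMIs summed to 2 or more, when it had fewer than 5 UMIs of CRABP1 and fewer than 5 of STMN2, and when it had 0 UMIs of the division genes MKI67 and TOP2A. The cells were thus chosen by the measured UMI counts of these 6 genes, whose levels are given only as a description. With the mitochondrial limit at 10% the gated share was 6.06%. The contrast of gated cells with the others follows from the same choice, so no test was made of it. Every fold difference below describes 1 library.

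The study profiled astrocyte progenitors at day 160 and at day 220 of culture with LIF, BMP4 and FGF1. All cells of both libraries derive from H7, an embryonic stem cell line of human origin, and both libraries had the same treatment label. Per the labels, 3 separately differentiated progenitor lines were combined before loading, and nothing in the files separates them, so each time point was 1 sample of 1 cell line without a replicate. Intervals cover counting error at 95% and say nothing of the spread between cultures. The protocol text of the day 220 library names day 160, while its title and its time label give day 220.

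Calretinin and secretagogin are EF-hand proteins, which bind calcium through a helix-loop-helix fold, and both are known from interneurons of the cortex and olfactory bulb. Such interneurons arise from ventral forebrain progenitors that express the DLX homeodomain factors, leave the cell cycle, and migrate as neuroblasts that carry doublecortin, the microtubule-associated product of DCX. GABA, their transmitter, is made by the glutamate decarboxylases of GAD1 and GAD2 and is loaded into vesicles by the transporter of SLC32A1.

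Sequences upstream of start sites are shown for SCGN of the gate and for 3 of the 4 genes with the highest log2 ratio of CPM + 1 in gated to other cells (BCL11B, KCTD12 and KLHL35). They come from the promoter table of RefSeq on GRCh38.p14 and cover the 250 bases before a start site, printed 5′ to 3′ on the gene's strand. SCGN lies at chr6:25651965-25652214, plus strand, BCL11B at chr14:99272198-99272447, minus strand, KCTD12 at chr13:76886406-76886655, minus strand and KLHL35 at chr11:75433204-75433453, minus strand. No base is in capitals because none of the 4 windows holds TAATTA, the core that many homeodomain proteins bind.
SCGN: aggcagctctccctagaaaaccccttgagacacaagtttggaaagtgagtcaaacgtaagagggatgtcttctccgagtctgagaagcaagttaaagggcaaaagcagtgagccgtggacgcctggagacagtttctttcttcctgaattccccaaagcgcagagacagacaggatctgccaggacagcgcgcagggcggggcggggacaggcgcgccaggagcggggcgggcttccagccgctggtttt
BCL11B: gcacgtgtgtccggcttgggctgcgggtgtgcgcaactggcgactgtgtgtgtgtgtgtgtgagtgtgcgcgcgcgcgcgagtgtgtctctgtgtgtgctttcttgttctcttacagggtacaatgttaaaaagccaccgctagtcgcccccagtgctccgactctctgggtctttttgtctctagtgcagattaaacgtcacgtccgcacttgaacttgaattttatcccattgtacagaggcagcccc
KCTD12: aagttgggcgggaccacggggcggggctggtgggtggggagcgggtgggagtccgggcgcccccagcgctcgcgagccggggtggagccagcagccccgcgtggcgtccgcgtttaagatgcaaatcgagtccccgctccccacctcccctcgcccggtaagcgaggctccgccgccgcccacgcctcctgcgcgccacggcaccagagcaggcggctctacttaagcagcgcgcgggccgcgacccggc
KLHL35: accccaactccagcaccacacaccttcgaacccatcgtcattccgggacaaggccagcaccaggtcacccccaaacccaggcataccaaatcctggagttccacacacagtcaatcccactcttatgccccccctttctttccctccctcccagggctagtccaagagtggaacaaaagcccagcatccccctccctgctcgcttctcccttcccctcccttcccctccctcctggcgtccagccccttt

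TAATTA reads the same on both strands. It was present in 1526 of 35116 windows of this length (4.346%) across the table. Of the 20 genes with the highest ratios, 16 had a window, and 2 of these, DCX and PRL, held TAATTA. Counted by window, it was in 3 of 24 (12.5%), and the DCX windows with it overlap and hold the same site. In DCX it lay 134 bases before a start site, within chrX:111412311-111412336 on the minus strand. In PRL, the prolactin gene, it lay 214 bases before the start, within chr6:22297235-22297260 on the minus strand. Both sites fall in bases that GENCODE 29 annotates as exon. The 26 bases around each are shown with TAATTA in capitals.
DCX: taaaagcatgTAATTAatcataggag
PRL: ccttttggccTAATTAatcaaaatcc
A match of letters is not a bound site, and its absence from a window says nothing of the factor.

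Among the gated cells, 693 had a UMI of both genes, 489 of CALB2 only and 30 of SCGN only. The sum of the 2 genes had a median of 11 UMIs, quartiles of 5 and 20 and a highest value of 82. Just inside the threshold were 101 cells with a sum of 2, and just outside it, with all other limits met, were 277 cells with a sum of 1. A further 4316 cells met those limits with a sum of 0. Of the 1764 day 160 cells with a sum of 2 or more, 552 stayed outside the gate: 366 had a UMI of MKI67 or TOP2A, 138 had 5 or more of CRABP1, and 48 had 5 or more of STMN2. The gated cells held 71.1% of all CALB2 UMIs and 75.8% of all SCGN UMIs of the passing cells.

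CALB2 (ENSG00000172137, chromosome 16, 71358713 to 71390438 on GRCh38) stood at 1464 CPM, counts per 10⁶ UMIs summed over the cells, against 46.3 CPM in the other 8760 cells. SCGN (ENSG00000079689, chromosome 6, 25652201 to 25701783) stood at 388 CPM against 9.66 CPM. Each count was also split at random into 2 parts, with 1 part used for the gate and the other for the levels. The UMI limits stayed the same on the smaller counts, so the 1147 cells then gated are not the same set. In them CALB2 stood at 1586 CPM against 43.2 CPM and SCGN at 431 CPM against 8.62 CPM. Both parts come from the same cells, so these levels of gate genes are a description only. Of the genes that the gate limits, CRABP1 stood at 39.1 CPM against 647 CPM in the same split. MKI67 stood at 3.82 CPM against 123.5 CPM and TOP2A at 10.1 CPM against 223 CPM. STMN2, also limited by the gate, was higher, at 34.85 CPM against 10.29 CPM.

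The day 160 library held 13018 barcodes and the day 220 library 676. Gated cells were shallower than the rest, with a median of 5862 UMIs and 2172 genes against 11200 UMIs and 3436 genes. Their median mitochondrial share was 12.4% against 11.8%. Scrublet, which scores barcodes that may hold 2 cells, marked 81 gated barcodes (6.68%) and 502 others (5.73%). The marked barcodes were kept, as the gate does not use them, and they held 18.3% of the UMIs of gated cells. The libraries shared 3 barcodes.

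Of 9001 genes with 10 CPM or more in gated or other cells, 255 (2.83%) had a level at least 2-fold higher in gated cells and 681 (7.57%) one at least 2-fold lower, on the scale of log2 of CPM + 1. The median log2 ratio over all of them was -0.05. The gate fixes this contrast, and the counts that follow describe it. The other cells mix dividing, CRABP1-high and glial cells, so ratios are also given against the 4593 other cells that met the CRABP1, STMN2, MKI67 and TOP2A limits. Against these, 387 of 8884 genes (4.36%) passed 2-fold upwards and 671 (7.55%) downwards, and the median ratio was -0.01.

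**Figure D1:**
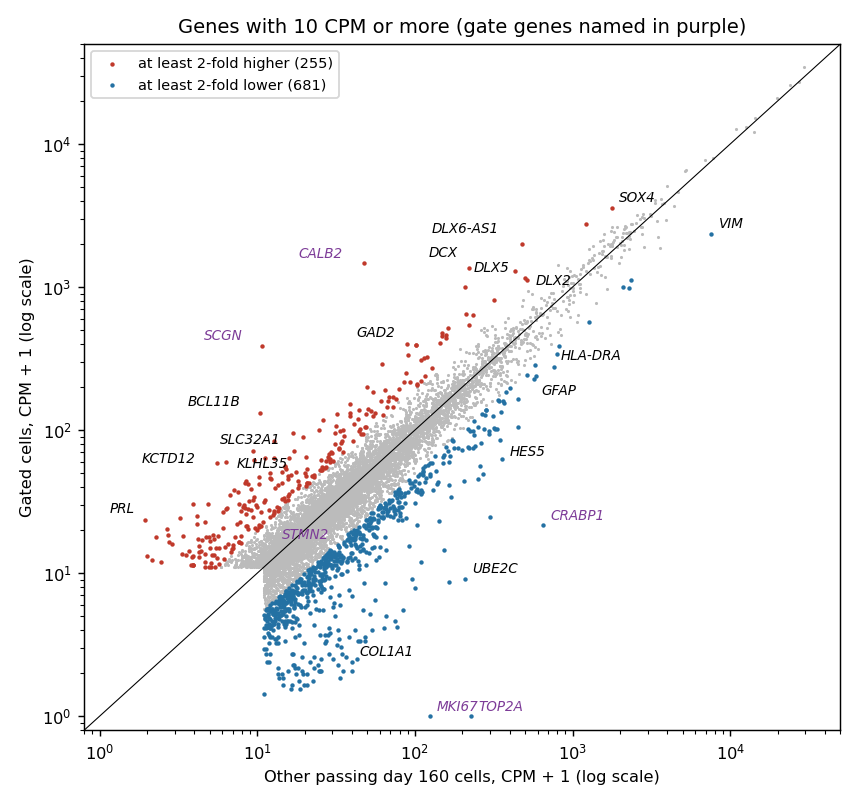
Level of each gene with 10 CPM or more in the other passing day 160 cells (horizontal, CPM + 1, log axis) and in gated cells (vertical, CPM + 1, log axis), with the line of equal levels. Red points (255) are at least 2-fold higher and blue points (681) at least 2-fold lower in gated cells; BCL11B, PRL, KCTD12 and KLHL35 lie farthest above the line after the gate genes CALB2 and SCGN.

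The markers named for these cells that the gate did not use, DCX and DLX2, were both higher. DCX (ENSG00000077279, chromosome X, 111293779 to 111412429) stood at 1358 CPM (1335 to 1382) against 218 CPM (216 to 221), 6.22-fold higher (6.09 to 6.36). DLX2 (ENSG00000115844, chromosome 2, 172099439 to 172102900) stood at 941 CPM (921 to 960) against 524 CPM (520 to 528), 1.80-fold higher (1.76 to 1.84). The DLX2 ratio was under 2-fold. It was 2.72-fold against the other cells within the same limits, and its log2 value was 1.02 without marked doublets and 0.58 after thinning to 5000 UMIs.

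After each cell was thinned to 5000 UMIs, with 299 shallower gated cells and 394 shallower others left out, DCX was detected in 96.7% (95.3 to 97.8) of 913 gated cells and in 42.4% of 8366 others. For DLX2 these shares were 96.3% (94.8 to 97.4) and 67.1%. Cluster 1, whose leading genes are HLA class II genes and whose GFAP level was the highest of 10 clusters, had DCX in 7.35% and DLX2 in 26.8% of 2096 cells, at a median of 14340 UMIs before thinning. Unthinned, DCX was detected in 98.7% of gated cells, 54.0% of the others and 17.6% of cluster 1. Both a DCX UMI and a UMI of DLX1, DLX2, DLX5 or DLX6 were present in 96.1% (94.6 to 97.2) of gated cells and 39.9% of the others. Only 3 of 913 gated cells had neither.

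The DLX and GABAergic regulators on the list were not uniform: of 13 measured, 5 were at least 2-fold higher, among them DLX5, DLX6, SP8 and SP9, and 1 was lower, with a median log2 ratio of 0.84. DLX5 stood at 1006 CPM against 207 CPM, 4.86-fold higher (4.74 to 4.97). DLX6 was 3.41-fold (3.18 to 3.66) and DLX1 1.88-fold (1.80 to 1.98) higher. DLX6-AS1, antisense to the DLX5 and DLX6 locus, stood at 1990 CPM against 480 CPM, and its reads cannot be told from those of DLX6 without knowing whether the counting used strand. The zinc-finger genes SP9 and SP8, expressed in ventral forebrain neuroblasts, were 3.91-fold (3.77 to 4.06) and 10.2-fold (8.24 to 12.6) higher, SP8 at only 17.5 CPM. GSX2, MEIS2 and PBX3 were within 2-fold.

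The genes that make and load GABA followed the same direction, with 3 of 4 measured at least 2-fold higher. GAD2 stood at 397 CPM (384 to 410) against 87.9 CPM (86.2 to 89.6), 4.52-fold higher (4.35 to 4.69). SLC32A1 was 5.28-fold higher (4.79 to 5.83) at 62.4 CPM, and GAD1 3.54-fold higher (3.07 to 4.08) at 27.2 CPM. ABAT, which encodes the enzyme that breaks GABA down, had a log2 ratio of -0.31. At 5000 UMIs, 83.8% of gated cells and 28.9% of the others had a UMI of GAD1, GAD2 or SLC32A1. A UMI of DCX, of a DLX gene and of a GABA gene occurred together in 81.9% (79.3 to 84.4) of gated cells and 23.6% of the others.

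Genes of interneuron origin were measured from separate lists. Apart from CALB2 and SCGN themselves, 3 of 8 measured genes of caudal ganglionic and olfactory interneurons were at least 2-fold higher. These were PROX1, a homeodomain factor, at 54.1 CPM against 14.0 CPM (3.85-fold, 3.48 to 4.26), SP8, and ETV1, an ETS factor of olfactory interneurons, at 189 CPM against 64.1 CPM (2.95-fold, 2.80 to 3.11). NR2F1, NR2F2, PAX6 and MEIS2 lay between -0.22 and 0.32 on the log2 scale. Of the medial ganglionic list, 5 of 10 genes were measured and ZEB2 and ERBB4, the neuregulin receptor, were higher, while NKX2-1, LHX6 and LHX8 had 0 UMIs in gated cells. A count of 0 allows up to 0.323 CPM here, from 3 UMIs. On the same list 3 genes also had 0 UMIs in other cells within the same limits, in CRABP1-high cells and in STMN2-high cells. Among all other cells 2 genes of the list had 0 UMIs, so such zeros were not particular to gated cells. NPY, a neuropeptide, stood at 214 CPM against 84.9 CPM (2.53-fold, 2.41 to 2.65), and its log2 ratio was 0.82 under the 10% mitochondrial limit. SST, another neuropeptide, stood at 12.5 CPM against 12.4 CPM.

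**Figure D2:**
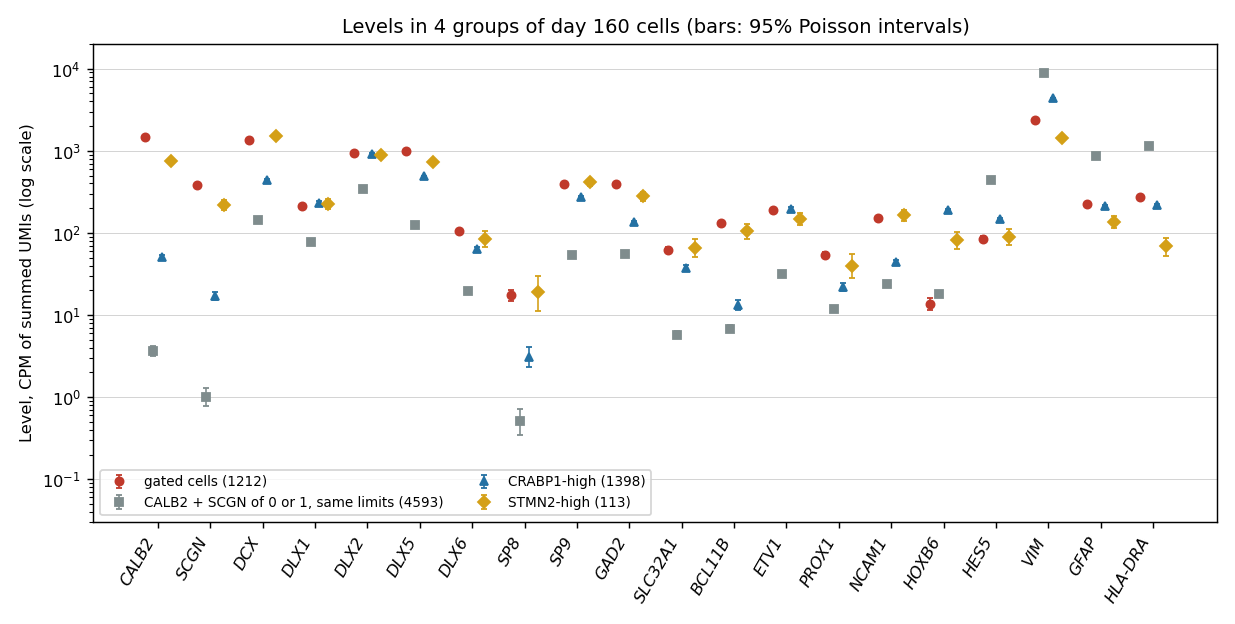
Level of 20 genes (vertical, CPM of summed UMIs, log axis, bars are 95% Poisson intervals) in gated cells, in other cells within the same limits, in CRABP1-high cells and in STMN2-high cells of day 160. DLX2 is close to the same height in gated (941 CPM), CRABP1-high (916 CPM) and STMN2-high cells (896 CPM), while BCL11B is at 131 CPM, 13.2 CPM and 104 CPM and HOXB6 at 13.7 CPM, 191 CPM and 81.1 CPM.

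Genes of migrating neuroblasts were higher in 7 of 14 measured and lower in 1, with a median log2 ratio of 0.98. DCX, NCAM1, ROBO2, SOX11, DCLK2, ROBO1 and SOX4 made up the 7. The adhesion gene NCAM1 was 4.03-fold higher (3.79 to 4.27) and the guidance receptor gene ROBO2 4.34-fold higher (3.96 to 4.74). SOX4 and SOX11, transcription factors of newborn neurons, stood at 3576 CPM and 817 CPM, 2.01-fold (1.98 to 2.03) and 2.59-fold (2.53 to 2.66) higher. After thinning to 5000 UMIs the log2 ratio of SOX4 was 0.79. That of ROBO1, a guidance receptor gene, was 1.12, and it was 0.95 against cells within the same limits and 0.93 with at least 2000 detected genes. NRP2, a semaphorin receptor gene, was 2.54-fold lower (2.22 to 2.93).

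Genes of the neuronal cell body and of synapses were measured from 3 lists. Of 13 microtubule genes 4 were past 2-fold (TUBB3, MAPT, STMN4 and MLLT11), and none was lower. Of 9 RNA-binding genes 4 were higher (ELAVL3, ELAVL4, CELF3 and CELF5), as were 5 of 9 synapse genes, among them SYT1, SYP, NRXN2 and NRXN3. The medians of the 3 lists were 0.63, 0.78 and 1.08. TUBB3, a tubulin of neurons, stood at 2746 CPM against 1214 CPM, and SYT1, the calcium sensor of vesicle release, at 98.5 CPM against 34.0 CPM. After thinning TUBB3 and STMN4 were just within 2-fold and ELAVL3 was at a log2 ratio of 0.63. STMN4 was also within 2-fold against cells within the same limits (0.95), and ELAVL3 under the 10% mitochondrial limit (0.61), with 2000 genes (0.88) and as a mean of cells (0.73). STMN2, a microtubule regulator of axons whose level the gate limits, had 139 UMIs in gated cells.

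On the log2 scale of CPM + 1, the highest ratio outside the gate genes, 3.67, belonged to BCL11B (ENSG00000127152, chromosome 14, 99169287 to 99271524), a zinc-finger factor of several forebrain neuron types, at 131 CPM (124 to 138) against 9.35 CPM (8.81 to 9.92), 14.0-fold higher (12.9 to 15.2). In the split counts it was 15.6-fold higher (13.9 to 17.6). BCL11B was detected in 43.6% of gated cells, 4.83% of the others and 0.239% of cluster 1 at 5000 UMIs. The next highest log2 ratios were 3.59 for PRL, 3.41 for KCTD12, an auxiliary subunit gene of GABA-B receptors, and 3.24 for KLHL35. The vesicle gene SYNPR, the granin gene SCG3 and the dynein gene DYNC1I1 were among the 20 highest too. PRL rested on 209 UMIs in 145 gated cells, at 22.5 CPM against 0.954 CPM, and without the added 1 CPM its ratio was above that of BCL11B.

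Glial and progenitor genes went the other way. Of 18 measured radial glia markers 11 were at least 2-fold lower and none higher (median -1.05), and of 10 astrocyte markers 6 were lower (median -1.19). This held against all other cells. The medians of the 2 lists were -0.06 and -0.02 against CRABP1-high cells and 0.45 and 0.73 against STMN2-high cells. VIM, the intermediate filament gene of radial glia, stood at 2360 CPM against 7587 CPM, 3.22-fold lower (3.17 to 3.26). GFAP, the astrocyte filament gene, stood at 227 CPM against 572 CPM, 2.52-fold lower (2.41 to 2.63). GJA1, a gap junction gene of astrocytes, was 1.79-fold higher (1.71 to 1.87), and SOX9, a factor of glial progenitors, 1.49-fold higher (1.44 to 1.54). SOX2 was detected in 94.5% and FABP7 in 86.0% of gated cells at 5000 UMIs, against 97.4% and 86.6% of the others. The levels of FABP7, HOPX, PTPRZ1, TTYH1 and CLU were past 2-fold in the main setting. With at least 2000 detected genes they were within 2-fold.

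Of 12 measured genes of the Notch pathway, which keeps progenitors from becoming neurons, 7 were lower and none higher against all other cells (median -1.06). Cells within the same limits gave 6 of 12 lower and none higher. Fewer were lower against CRABP1-high cells (4 of 12, with 1 higher) and against STMN2-high cells (0 of 11, with 2 higher, median 0.14). JAG1 and NOTCH3 were within 2-fold with at least 2000 detected genes, and JAG1 also against cells within the same limits. The effector genes HES5 and HES1 stood at 84.8 CPM against 347 CPM and at 16.4 CPM against 44.9 CPM. All 8 HLA class II genes were lower, HLA-DRA at 274 CPM against 756 CPM, though HLA-DQA1 and HLA-DQB1 were within 2-fold under the 10% mitochondrial limit. Of 9 measured forebrain genes 4 (LHX2, EMX2, OTX2 and NR2E1) were more than 2-fold lower and 5 within 2-fold, while the whole list summed to 1677 CPM in gated and 1234 CPM in other cells. Against cells within the same limits 5 of the 9 were lower and 2 higher.

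Division genes other than MKI67 and TOP2A were lower in 15 of 18 (median -3.40), which the gate favours by its limits. Against cells within the same limits 9 of them were measured and 1 of these, CDK1, was lower. UBE2C, a ubiquitin ligase gene of mitosis, went from 25.4-fold lower (20.3 to 32.3) to a log2 ratio of 0.37. Genes of posterior identity behaved alike: 5 of 7 were lower against all other cells and 0 of 6 against those within the same limits. The 366 dividing cells with a CALB2 and SCGN sum of 2 or more, outside the gate, stood at 730 CPM of DCX and 906 CPM of DLX2. Scrublet marked 73 of the 366 (19.9%) as doublets, and the 366 had a median of 11150.5 UMIs against 5862 in gated cells. Against these 366 cells 50 of 8889 genes (0.562%) were past 2-fold higher in gated cells and 482 (5.42%) lower.

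Markers of other cell types were checked over whole lists. The 9 microglia and endothelial markers all had 0 UMIs in gated cells and summed to 0.284 CPM in the others. Neural crest markers summed to 1.18 CPM and posterior GABAergic markers to 3.23 CPM, with PAX2, PAX8 and LBX1 at 0 UMIs. Excitatory cortical markers summed to 6.46 CPM against 21.4 CPM, with TBR1, NEUROD6 and SLC17A6 at 0 UMIs. Astrocyte markers summed to 2008 CPM against 3922 CPM and HLA class II genes to 585 CPM against 1679 CPM, and none of either list was at 0.

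Clustering of the day 160 cells with the 6 gate genes left out gave 10 clusters. Cluster 2 held 1010 gated cells, 83.3% of them (81.1 to 85.4), and gated cells were 54.4% (52.1 to 56.7) of its 1857 cells. Its leading genes, ranked with all genes, were CALB2, SCGN, BCL11B, DCX, DLX5, SST, GAD2, DLX6-AS1, SP9 and SMOC1. Cluster 9 held 71 gated cells of its 255, and 228 of its barcodes were marked as doublets. The other 131 gated cells were spread over clusters 1, 3, 4, 6, 7, 8 and 10, and cluster 5 held none.

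**Figure D3:**
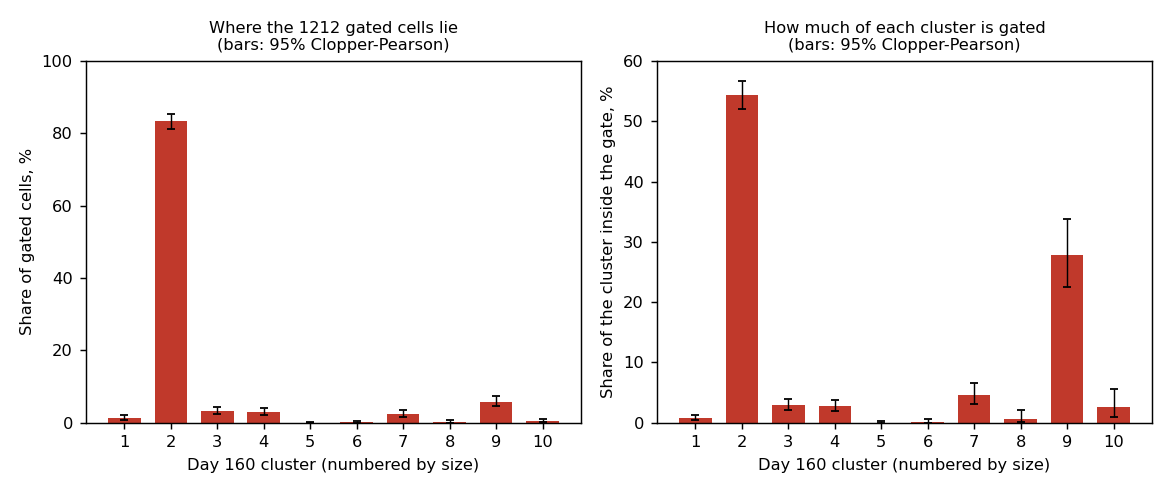
Share of the 1212 gated cells in each day 160 cluster (left, percent) and share of each cluster inside the gate (right, percent), with 95% Clopper-Pearson bars. Cluster 2 holds 83.3% of gated cells, and 54.4% of cluster 2 and 27.8% of cluster 9 are gated.

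Of 8876 genes, 201 (2.26%) were at least 2-fold higher in the 1010 gated cells inside cluster 2 than in the 202 outside it, and 784 (8.83%) lower. The 202 had a median of 14036 UMIs against 5618, and 80 of them were marked as doublets, against 1 inside. Glial genes were concentrated there: HLA class II genes summed to 1604 CPM outside against 79.2 CPM inside, and astrocyte markers to 3956 CPM against 1042 CPM. GFAP stood at 584 CPM against 50.4 CPM and VIM at 6022 CPM against 544 CPM. DCX went the other way, at 703 CPM outside and 1683 CPM inside, as did BCL11B at 47.7 CPM and 172 CPM. Without marked doublets in either group GFAP stood at 126 CPM and HLA-DRA at 145 CPM in gated cells, and of 9045 genes 346 (3.83%) were higher and 931 (10.3%) lower. With the gated cells of cluster 2 only, 402 of 9074 genes (4.43%) were higher than in all other cells and 1156 (12.7%) lower, a setting chosen after seeing the data.

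Cluster 2 also held 586 cells that met every limit of the gate but had a CALB2 and SCGN sum of 0 or 1. Between these and the gated cells of the cluster, 71 of 8349 genes (0.85%) were at least 2-fold higher in gated cells and 98 (1.17%) lower, and the median ratio was -0.03. DLX and GABA genes differed little. DLX2 stood at 1096 CPM in gated and 1216 CPM in the other cells of the cluster, GAD2 at 496 CPM and 422 CPM, and DLX6 at 135 CPM in both.

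Several transcription factors stood apart within the cluster. SP8 stood at 21.9 CPM in its gated cells and 2.65 CPM in the others, 8.27-fold higher, and BCL11B was higher by 2.62-fold (2.29 to 3.00) and ETV1 by 2.44-fold (2.18 to 2.73). PRL was 5.83-fold (3.70 to 9.64) and MEF2C, a factor of interneuron maturation, 3.19-fold (2.14 to 4.90) higher. Lower in gated cells were SST (6.13-fold, 4.98 to 7.59), HOXB4 (17.1 CPM against 80.9 CPM), HOXB2 (4.34-fold, 3.70 to 5.11) and FABP5 (4.60-fold, 4.12 to 5.14). Of 5 measured posterior identity genes 4 were lower. SST rested on few cells, with 31 of 1212 gated cells holding all 116 UMIs and 1 cell holding 23.3% of them.

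Within the gate, levels were compared along the CALB2 and SCGN sum, in 263 cells with a sum of 2 to 4, 265 with 5 to 9, 359 with 10 to 19 and 325 with 20 or more. Median depth ranged only from 5672 to 6115 UMIs across the 4 groups. Of 8673 genes, 124 (1.43%) were at least 2-fold higher in the last group than in the first and 145 (1.67%) lower. At 5000 UMIs the share of cells with BCL11B went from 29.6% to 62.8%, ETV1 from 37.2% to 66.3%, GDAP1L1 from 15.6% to 43.9% and SCG3 from 15.6% to 36.5%. In the opposite direction went DLX1, from 68.8% to 48.2%, HOXB2, from 22.6% to 5.10%, and CD44, a hyaluronan receptor gene of glia, from 51.3% to 26.7%. DLX2, DLX5, GAD2 and SOX2 differed by less than 9 percentage points. These genes were picked for display after their values were seen.

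**Figure D4:**
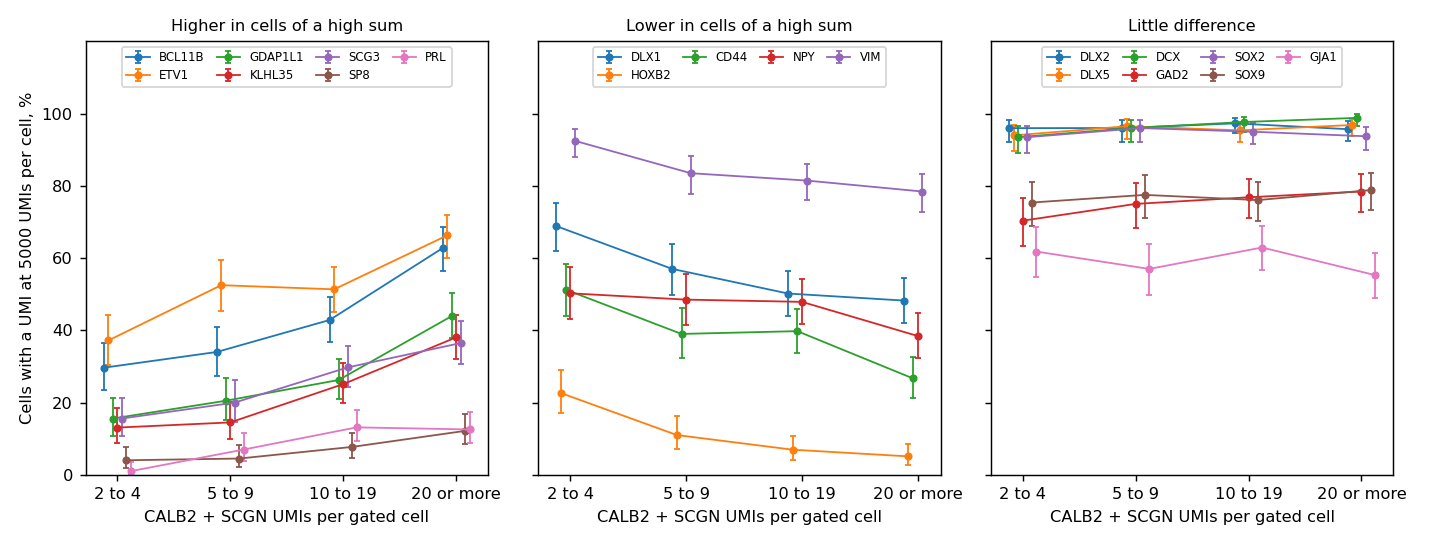
Share of gated day 160 cells with a UMI of each gene after thinning to 5000 UMIs (vertical, percent, 95% Clopper-Pearson bars) in 4 groups of the CALB2 and SCGN sum (horizontal). BCL11B goes from 29.6% to 62.8% and ETV1 from 37.2% to 66.3%, HOXB2 goes from 22.6% to 5.10%, and DLX2 stays between 95.7% and 97.3%.

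Cells with both CALB2 and SCGN differed from those with CALB2 only in few genes: 39 of 8506 genes (0.458%) passed 2-fold upwards and 14 (0.165%) downwards. The highest ratios were those of ACTL6B (3.67-fold, 2.37 to 5.90), a neuronal subunit gene of a chromatin remodelling complex, SYNPR (3.17-fold, 2.34 to 4.35) and RIPOR2 (2.76-fold, 2.17 to 3.55). Cells with both genes also had higher sums, with a median of 17 against 6. ACTL6B and SYNPR were themselves higher at sums of 20 or more than at 2 to 4 (log2 ratios 2.70 and 1.86). Detection of both genes and a higher sum cannot be told apart here. Under the rule for genes most like CALB2 and SCGN, which ranks cells with both against all other cells (of 9037 genes, 321 or 3.55% higher and 783 or 8.66% lower), the 10 highest were BCL11B, PRL, KCTD12, KLHL35, ST18, MIR7-3HG, ERBB4, GDAP1L1, SYNPR and SP8. The 30 cells with SCGN only had HOXB2 in 52.2% of 23 deep enough cells, against 10.5% of 399 cells with CALB2 only. The cells with SCGN only also had lower sums, with a median of 3 and a highest of 7, against 6 and 48. HOXB2 was itself lower at high sums, so the 2 differences cannot be told apart here. Between these unequal groups 1030 of 8701 genes (11.8%) were higher with CALB2 only and 560 (6.44%) lower, from 208936 UMIs in the smaller one.

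CRABP1-high cells were 1398 cells that had 5 or more CRABP1 UMIs and were neither dividing nor STMN2-high. Of 8625 genes, 116 (1.34%) were higher in gated cells and 189 (2.19%) lower. DLX2 differed little (941 CPM against 916 CPM), as did ETV1 (189 CPM against 197 CPM). Gated cells had more DCX (3.06-fold, 2.97 to 3.15), GAD2 (2.95-fold, 2.79 to 3.11), SP8 (5.63-fold, 4.06 to 7.93) and BCL11B (9.93-fold, 8.56 to 11.6). All 8 measured posterior identity genes were lower, among them HOXB6 (13.9-fold, 11.7 to 16.8) and HOXB8 (14.9-fold, 11.6 to 19.5). Of 18 radial glia markers 1 was higher and 1 lower, and of 10 astrocyte markers 0 passed 2-fold in either direction.

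STMN2-high cells were 113 cells that had 5 or more STMN2 UMIs and were not dividing, with no limit on CRABP1, CALB2 or SCGN. Of these 113, 57 had a UMI of CALB2 and 46 of SCGN, and the STMN2 limit kept all 113 outside the gate. Against them, 214 of 8735 genes (2.45%) were higher in gated cells and 226 (2.59%) lower. DCX was close to level, at 1358 CPM against 1523 CPM, and DLX2 and ELAVL4 differed by less than 1.2-fold. Later neuronal genes were lower: SNAP25, of the vesicle fusion machinery, 2.97-fold (2.29 to 3.82), SYT1 2.43-fold (2.09 to 2.81), MAPT, the tau gene, 3.65-fold (2.64 to 4.98), and SST, at 12.5 CPM against 149.6 CPM. Of 11 synapse genes 5 were lower and none higher, and of 13 RNA-binding genes 6 were lower. None of 10 caudal ganglionic and olfactory genes, CALB2 and SCGN among them, was higher, and 2 were lower. The same held for 14 DLX and GABAergic regulators and for 15 migrating neuroblast genes, each with 0 higher and 2 lower. The 5 genes of GABA synthesis and transport were all within 2-fold. These traits were thus shared with STMN2-high cells. Of 18 radial glia markers 3 were higher and 0 lower, and of 9 astrocyte markers 3 were higher and 1 lower. The neurofilament gene NEFM had 3 UMIs in all gated cells (0.323 CPM) against 40 in STMN2-high cells (42.2 CPM). PEG10, an imprinted gene, was 5.67-fold higher (4.58 to 7.10) in gated cells, and all 6 measured HLA class II genes were higher. The whole HLA class II list summed to 585 CPM in gated cells and 137 CPM in STMN2-high cells, but to only 79.2 CPM in the 1010 gated cells inside cluster 2, below the STMN2-high level.

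The same gate was applied to the day 220 library, which had 524 passing cells. There 37 cells were inside it, 7.06% (5.02 to 9.60), with a median of 26609 UMIs, against 47538 UMIs in the other 487. None of the 37 was marked as a doublet. CALB2 stood at 203 CPM and SCGN at 132 CPM in them. Time and any other difference between the 2 cultures cannot be told apart with 1 library each.

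In these 37 cells 453 of 10219 genes (4.43%) were at least 2-fold higher than in the other day 220 cells and 431 (4.22%) lower. DCX was 5.76-fold higher (5.32 to 6.23) at 591 CPM, DLX5 4.02-fold (3.69 to 4.38), SP9 4.06-fold and BCL11B 6.01-fold (4.76 to 7.52). DLX2 was 1.51-fold higher (1.35 to 1.70) and had a UMI in 35 of 37 cells. GAD2 was 2.63-fold higher (2.30 to 3.00), while GAD1 (112 CPM against 110 CPM) and PROX1 (78.3 CPM against 71.6 CPM) were level. The glial genes GFAP and S100B were 7.73-fold (5.26 to 11.8) and 3.53-fold (3.11 to 4.04) lower. HOPX had 2 UMIs in gated cells, a level 64.9-fold lower (17.9 to 536). PRL and SST had 0 UMIs in the 37 cells.

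**Figure D5:**
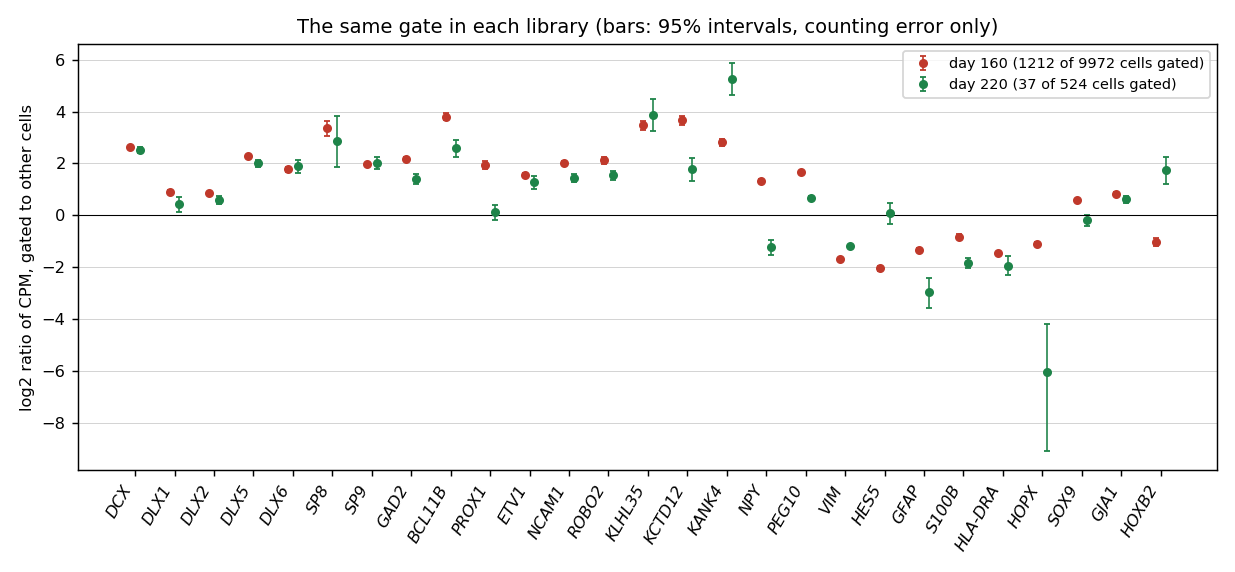
Ratio of CPM in gated to other cells (vertical, log2) for 27 genes in the day 160 library (1212 gated cells) and in the day 220 library (37 gated cells), with 95% intervals for counting error. DCX, DLX5, SP9 and BCL11B are above 0 in both libraries, VIM, GFAP and HLA-DRA below 0 in both, and NPY, HOXB2, HES5 and SOX9 change sides, the last pair lying near 0 at day 220.

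Some day 220 levels rested on few cells. KANK4, at 53.6 CPM against 1.42 CPM, had UMIs in 6 of 37 cells, and 1 cell held 48.7% of them. BRINP1, a neural gene of cell cycle control, was 45.7-fold higher (35.4 to 59.4), with UMIs in 15 cells and 63.4% of them in 3 cells. DCX, DLX5 and BCL11B were spread more widely, in 32, 34 and 26 cells, with 10.7%, 7.56% and 11.4% of their UMIs in the top cell.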

How the data were processed

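Single-cell RNA was measured in 2 libraries of H7 astrocyte progenitors, 1 per time point. The authors deposited raw UMI counts per gene and barcode, and the file headers name Cell Ranger 7.0.1. The submitters' processing notes list Seurat 4 and hg38 beside Cell Ranger 7. The sources used here do not give intron counting, strand setting, annotation release or cell calling.

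Counts were summed over the cells of a group and scaled to CPM. Ratios are log2 of CPM + 1 over CPM + 1, for genes that reached 10 CPM in either group. Each time point had 1 library, so no p-value was computed. CPM carries exact Poisson intervals, ratios exact conditional binomial intervals without a pseudocount, and shares Clopper-Pearson intervals, all at 95% and for counting error only. UMIs of gated cells summed to 9292502 and of the other day 160 cells to 119554762, so a count of 0 allows up to 0.323 CPM and 0.0251 CPM, from 3 UMIs. Barcodes marked by Scrublet (scanpy 1.11.5, expected rate 0.06) were kept. Shares were taken after thinning each cell to 5000 UMIs. Clustering used 2000 variable genes without the 6 gate genes, 30 principal components, 15 neighbours and Leiden resolution 0.5.

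The named genes are those of 34 lists with 10 CPM or more in gated or other cells, and the 20 highest and 15 lowest ratios among genes with 20 CPM or more in either group, without mitochondrially encoded, ribosomal protein and gate genes. Genes of further comparisons in the text follow the same ranking. The gate, its members and the lists were chosen with earlier results of these data known. Gene coordinates are from GENCODE 29 on GRCh38, matched by Ensembl identifier. The scripts were tested on simulated data. Other settings were tried, 12 chosen at the outset and 1 after seeing the data. Some genes are not reported here and are left out of the counts of named genes.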

Additional observations from a re-analysis of the deposited data

Results flagged for a closer look

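Under the same gate, 117 of the genes named in any comparison were at least 2-fold apart in both libraries. Of these, 106 had the same direction and 11 opposite directions, and the difference between the libraries was not tested. The named genes include the 6 gate genes and genes ranked highest or lowest in either library. The same gate chose the cells of both libraries, so part of the shared direction is fixed by it. No share over all genes was computed, and the 106 are a description only. Among the 11, 6 are genes of contraction, matrix or wound response that were lower in gated cells at day 160 and higher in gated cells at day 220. The log2 ratios were -4.05 at day 160 and 1.17 at day 220 for COL1A1, -2.22 and 1.90 for TAGLN, and -3.21 and 1.79 for ANKRD1. They were -1.58 and 1.73 for CCN1, -2.19 and 1.25 for CCN2, and -2.65 and 2.85 for ACTG2. At day 220, 3 of 37 gated cells held all COL1A1 and ACTG2 UMIs and 95.8% of the TAGLN UMIs, and 1 cell held 93.5% of those of ACTG2.

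The posterior genes HOXB5 (-1.46 and 1.65) and HOXB6 (-1.67 and 1.35) also had opposite ratios, and 3 cells held all of their UMIs in the day 220 gate. CMTM8 (-1.25 and 1.52) had UMIs in 3 of the 37 cells. CIITA, the regulator of HLA class II genes (-1.04 and 1.19), had them in 2, and its day 160 ratio was within 2-fold with at least 2000 detected genes (-0.82) and with split counts (-0.88). NPY went the other way, with 1.33 at day 160 and -1.21 at day 220, where 17 of the 37 cells had a UMI.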

How the results depend on the processing

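The gated share of 12.15% became 6.06% with a mitochondrial limit of 10%, 9.17% with at least 2000 detected genes, 9.58% after thinning to 5000 UMIs and 10.3% with a gate of 4 UMIs. The 255 genes at least 2-fold higher became 428 under the 10% limit, 387 against other cells within the same limits, 113 with a filter of 50 CPM, 404 with no filter and 402 with only the gated cells of cluster 2, an alternative chosen after seeing the data. The 681 lower genes became 1069 under the 10% limit, 208 at 50 CPM, 1067 with no filter and 1156 with cluster 2 only.

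The DLX2 log2 ratio of 0.84 became 1.02 without marked doublets, 0.79 under the 10% limit, 0.79 with 2000 genes, 0.58 after thinning, 0.81 with a gate of 4, 0.81 with split counts, 1.44 within the same limits, 0.59 as a mean of cells, 0.88 without mitochondrial and ribosomal genes and 1.06 with cluster 2 only. The DCX log2 ratio of 2.63 became 2.87, 2.87, 2.58, 2.30, 2.69 (split counts), 3.21, 2.30, 2.67 and 2.94 in the same order, the gate of 4 left out. Both stayed above 0 in these settings. The filters of 50 CPM and of none were run for the counts of genes only.

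Of 129 named genes past 2-fold, between 97 and 129 stayed past it in each alternative that gave gene values. Against cells within the same limits, genes that were lower turned higher: UBE2C (0.37), CDC20 (0.38), AURKA (0.28), AURKB (0.19), CENPA (0.013), CENPE (0.099), DLGAP5 (0.20), NUF2 (0.17), HMGB2 (0.53) and TYMS (0.14). This comparison leaves out dividing cells by construction.

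No paired analysis was possible because each time point had 1 library, and for the same reason no replicate was left out. Gated cells had a median of 5862 UMIs against 11200 in the others, which limits the detection of low genes.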

Other observations

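Neighbours within 3 Mb on the chromosome were read for 6 genes, as descriptions, beside shares over all genes of 2.83% at least 2-fold higher and 7.57% lower. Of 25 measured near DLX5 on chromosome 7, 4 were higher in gated cells (PEG10, DYNC1I1, DLX6-AS1 and DLX6) and 2 lower (PON2 and NPTX2). PEG10 stood at 514 CPM against 162 CPM and DYNC1I1 at 94.8 CPM against 15.9 CPM. Of 27 near DLX2, 2 were higher, GAD1 and SP9, which belong to the DLX and GABA lists, and 1, ITGA6, was lower. Near SCGN 1 of 24 was higher (RIPOR2) and 3 were lower (GMNN, HIST1H4C and HIST1H1B). These 3 had log2 ratios of -0.04, 0.97 and 0.30 against cells within the same limits, the last from 1.18 CPM and 0.776 CPM. Near CALB2 1 of 29 was higher (AC004158.1) and 1 lower (NQO1). Of 22 near BCL11B 1 was higher (LINC01550) and 5 lower (CCDC85C, CYP46A1, EML1, DIO3OS and DIO3), and of 8 near DCX none was higher and 1, COL4A5, lower. In the comparison with cells within the same limits, 4.36% of all genes were higher. There 6 of 27 neighbours were higher near DLX2 and 4 of 25 near DLX5. Near each of the other genes 1 was higher: of 23 for SCGN, 31 for CALB2, 22 for BCL11B and 9 for DCX. The neighbours were named after their values were seen.

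The 2 chains of type I collagen were on opposite sides of the gate at day 160, but only COL1A1 passed the CPM filter for ratios. COL1A2 was below that filter in gated and in other cells, so it is not among the measured genes and its ratio is a description of low counts. COL1A1 stood at 1.40 CPM in gated cells and 38.8 CPM in the others, 27.7-fold lower (16.2 to 52.1), while COL1A2 stood at 7.75 CPM and 1.64 CPM, 4.73-fold higher (3.56 to 6.22). The 72 COL1A2 UMIs lay in 57 gated cells, so no single cell carried them. COL1A2 was at 10.6 CPM in the ungated cells of cluster 2 as well.

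EF-hand genes differed among themselves. Of 12 measured, CALB2 and SCGN chose the cells, CALB1 (-1.26), NCALD (-1.49) and S100A11 (-1.63) were at least 2-fold lower on the log2 scale, although CALB1 was within 2-fold after thinning, and the calmodulin genes lay between -0.35 and 0.04.

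The share of barcodes inside the gate differed with the mitochondrial share. It was 6.06% (5.06 to 7.20) of 2012 barcodes at or under 10%, 13.7% (12.9 to 14.5) of 7960 between 10% and 15%, and 10.5% (9.28 to 11.8) of 2426 barcodes over the limit, which were left out elsewhere.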
